A study of Mus musculus with 34 samples.

Results

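The nuclear genes of the mouse mitochondrial respiratory chain were followed through a chromatin series on blood monocytes, liver macrophages and cultured macrophages. Members were all genes whose symbol begins with Nduf followed by a, b, c, s or v, with Uqcr, with Cox and a digit from 4 to 8, or with Atp5, together with Sdha, Sdhb, Sdhc and Sdhd. A member needed at least 1 region of the deposited region tables within 100000 bp of its transcription start site. In all, 87 genes met the rule in either table, 86 of them in both. The table of monocytes and liver macrophages held 86 members with 254 regions, out of 17205 genes and 84647 regions. The table of bone marrow-derived macrophages (BMDM) held 87 members with 284 regions, out of 17860 genes and 95038 regions. Roles were read from the gene symbols alone, so a protein may belong elsewhere than its symbol places it. By symbol, 37 members fell to complex I, 8 to complex I assembly factors of the Ndufaf kind, 4 to complex II and 8 to complex III. A further 15 fell to complex IV and 14 to complex V, and the last was Atp5s, a coupling factor. Ndufaf1 had regions in the BMDM table only. The symbols Atp5md, Atp5mpl, Atp5pb, Cox7b2, Cox8b, Cox8c, Dmac2, Emc8, Ndufa1, Ndufb1, Ndufb4b and Ndufb4c, which fit the name rule by symbol or synonym in RefSeq, had no region in either table under those names and were not analysed here.

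H3K27ac, the acetylated form of a histone tail that is found at promoters and enhancers in use, was mapped by chromatin immunoprecipitation and sequencing. Kupffer cells (KC), which are the macrophages that live in the sinusoids of the liver, were labelled C57BL/6J, whereas the series' design text assigns them to Clec4f-Cre/DTR mice. Repopulating liver macrophages (RLM) came from Clec4f-cre/Rosa26iDTR mice 24 h after diphtheria toxin, an agent that kills the resident Kupffer cells in which Clec4f drives the Cre recombinase. Their reference was the Ly6C-high blood monocyte of C57BL/6J mice. BMDM of C57BL/6J mice, cultured for 4 days, were given the Notch ligand DLL4 for 24 h or left untreated. The transcription factors LXR, SMAD4 and RBPJ were mapped as well. LXR was mapped in KC of Clec4f-cre mice and in BMDM cultured for 7 days with the LXR agonist GW3965 for 18 h. SMAD4 and RBPJ were mapped in KC nuclei of Clec4f-cre mice and in untreated BMDM cultured for 4 days. Each group had 2 libraries. No label ties a library to an animal or a culture. The p-values given here therefore rest on the spread between libraries of a group, which may be technical. This spread was estimated over all libraries of a table and moderated over all genes.

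The respiratory chain passes electrons from NADH through complex I and from succinate through complex II to ubiquinone, then through complex III and cytochrome c to complex IV, which reduces oxygen. Complexes I, III and IV pump protons across the inner membrane, and complex V, the ATP synthase, uses the returning protons to make ATP. Most subunits are encoded in the nucleus from promoters known for sites of the factors NRF1, GABP (an ETS factor) and YY1. Several complex IV subunits have tissue-restricted copies, such as Cox6a2 and Cox7a1 of heart and muscle, Cox4i2 of lung and Cox6b2 of testis. Macrophages are known to shift between glycolysis and oxidative phosphorylation with their state. LXR is a nuclear receptor for oxysterols, SMAD4 carries TGF-beta and BMP signals, and RBPJ is the DNA-binding partner of Notch.

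The libraries held between 7.37 and 19.5 M tags in regions in the monocyte and liver table, and between 20.2 and 27.2 M in the BMDM table. Members took 0.369% to 0.423% of the tags in the liver and monocyte libraries and 0.318% to 0.325% in the BMDM libraries. Summed levels of marker genes followed the labels. Summed over 8 Kupffer cell markers, H3K27ac came to 2198 and 2483 CPM (counts per 1 M tags) in KC, 413 to 441 CPM in RLM and 140 to 166 CPM in monocytes. Over 8 monocyte markers the sums were 247 to 256 CPM in KC, 572 to 584 CPM in RLM and 616 to 617 CPM in monocytes. Single monocyte markers varied more than these sums, and 4 of the 8 were called lower in RLM than in monocytes. In KC 5 were lower and 1 higher than in monocytes, and 6 were lower and 1 higher than in RLM. Summed levels of markers of other liver cells were also higher in KC, through few genes. Of 8 hepatocyte markers 3 had a region, summing to 48.1 to 50.7 CPM in KC, 19.1 to 20.3 CPM in RLM and 15.8 to 17.1 CPM in monocytes, and Serpina1a, Fgb, Cps1, Tat and Hnf4a had none. Only Ttr of the 3 was called, with means of 37.4 CPM in KC, 6.73 CPM in RLM and 2.34 CPM in monocytes. Of 8 liver endothelium markers 7 had a region, summing to 197 to 200 CPM in KC, 112 to 123 CPM in RLM and 91.6 to 102 CPM in monocytes, and Tie1 had none. In KC against monocytes 3 of the 7 were higher (Stab2, Pecam1 and Cdh5) and 3 lower (Egfl7, Kdr and Clec4g), with a median log2 fold change of -1.08. Against RLM, Stab2 was higher in KC, and Egfl7 and Kdr were lower. Over 8 macrophage markers the sums were 1353 to 1474 CPM in KC, 642 to 649 CPM in RLM and 262 to 269 CPM in monocytes. The single stellate cell marker with a region, 6 neutrophil markers and 2 lymphocyte markers each summed to at most 50.1 CPM in any of the 6 monocyte and liver libraries. In the BMDM libraries neutrophil markers summed to 126 to 128 CPM with DLL4 and 134 to 169 CPM without, and lymphocyte markers to 258 CPM in both libraries with DLL4 and 188 to 195 CPM without. The part of such cells in the differences given here was not tested.

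Promoter sequences were taken from RefSeq (GRCm38.p6, the mm10 build of the files) as windows of 300 bp, from 250 bp before to 50 bp after the start, and 72 of the 87 members matched one. The 7 shown here are those with the strongest factor peak over the window in each of the 6 factor groups and the leading gene by H3K27ac change, Atp5o. Capitals mark the NRF1 letters (GCGC, any base, TGCGC) or the ETS letters CCGGAAG on either strand.
Atp5o: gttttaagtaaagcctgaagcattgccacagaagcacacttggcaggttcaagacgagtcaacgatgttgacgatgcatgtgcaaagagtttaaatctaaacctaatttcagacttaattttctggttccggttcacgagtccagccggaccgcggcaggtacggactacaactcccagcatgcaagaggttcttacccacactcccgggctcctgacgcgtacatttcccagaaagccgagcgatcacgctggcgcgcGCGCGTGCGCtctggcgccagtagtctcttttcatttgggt
Uqcr10: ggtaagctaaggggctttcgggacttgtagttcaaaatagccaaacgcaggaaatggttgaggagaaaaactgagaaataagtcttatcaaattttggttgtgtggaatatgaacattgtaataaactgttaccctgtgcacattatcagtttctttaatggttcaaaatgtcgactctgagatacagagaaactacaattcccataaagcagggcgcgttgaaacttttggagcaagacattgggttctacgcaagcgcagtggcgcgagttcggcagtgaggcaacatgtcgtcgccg
Ndufa5: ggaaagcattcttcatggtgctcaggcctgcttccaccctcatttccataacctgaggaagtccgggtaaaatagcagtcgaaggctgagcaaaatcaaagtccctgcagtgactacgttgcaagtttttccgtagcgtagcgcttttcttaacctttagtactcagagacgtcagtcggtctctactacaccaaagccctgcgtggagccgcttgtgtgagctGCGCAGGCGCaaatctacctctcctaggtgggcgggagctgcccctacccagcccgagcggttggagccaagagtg
Sdhb: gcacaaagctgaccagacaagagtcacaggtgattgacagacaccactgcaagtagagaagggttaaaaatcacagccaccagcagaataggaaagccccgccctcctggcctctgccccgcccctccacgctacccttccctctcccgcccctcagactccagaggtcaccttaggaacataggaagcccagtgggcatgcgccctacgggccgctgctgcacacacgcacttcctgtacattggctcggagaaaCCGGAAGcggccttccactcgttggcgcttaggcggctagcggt
Ndufs5: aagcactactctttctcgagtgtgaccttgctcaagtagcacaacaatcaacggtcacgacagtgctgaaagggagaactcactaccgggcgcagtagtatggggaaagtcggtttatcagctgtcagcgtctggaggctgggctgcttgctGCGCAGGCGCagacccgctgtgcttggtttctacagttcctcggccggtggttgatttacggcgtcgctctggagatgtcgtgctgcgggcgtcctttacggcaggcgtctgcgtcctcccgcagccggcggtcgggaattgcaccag
Atp5d: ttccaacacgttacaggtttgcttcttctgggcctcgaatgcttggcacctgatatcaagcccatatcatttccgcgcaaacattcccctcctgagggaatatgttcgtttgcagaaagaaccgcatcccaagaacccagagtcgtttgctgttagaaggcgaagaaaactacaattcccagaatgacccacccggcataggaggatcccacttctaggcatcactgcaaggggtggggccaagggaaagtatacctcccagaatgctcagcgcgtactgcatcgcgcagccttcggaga
Atp5g2: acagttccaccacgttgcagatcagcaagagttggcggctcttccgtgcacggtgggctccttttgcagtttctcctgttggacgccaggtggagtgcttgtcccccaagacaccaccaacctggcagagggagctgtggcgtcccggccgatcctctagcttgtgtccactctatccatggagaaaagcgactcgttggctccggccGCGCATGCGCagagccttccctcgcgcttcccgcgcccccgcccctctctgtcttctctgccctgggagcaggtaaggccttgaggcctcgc

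The windows lie at chr16:91931581-91931880 (minus strand) for Atp5o, chr11:4704295-4704594 (minus) for Uqcr10, chr6:24527641-24527940 (minus) for Ndufa5, chr4:140961021-140961320 (plus) for Sdhb, chr4:123718137-123718436 (minus) for Ndufs5, chr10:80142025-80142324 (plus) for Atp5d and chr15:102670998-102671297 (minus) for Atp5g2. Atp5o, Ndufa5, Ndufs5 and Atp5g2 carry the NRF1 letters and Sdhb the ETS letters, while the windows of Uqcr10 and Atp5d hold neither. Over all 72 member windows, the NRF1 letters were present in 18 (25%), against 4.78% of 27025 promoters of all genes. The ETS letters were present in 18 (25%) of member windows, against 9.12% of all. The YY1 letters AAGATGGC were present in 13.9% of member windows, against 2.88% of all. At least 1 of these 3 motifs lay in 39 of the 72 windows (54.2%), against 15.2% of all promoters. The half-site of the estrogen-related receptors, AAGGTCA, was in 11.1% of member windows and 4.66% of all, and CCAAT was in 45.8% and 37.9%. The RBPJ letters GTGGGAA were in 5.56% of member windows, against 6.39% of all, and the SMAD letters GGCGCC in 18.1%, against 12.0%. No member window held GTCTAGAC or the LXR repeat (AGGTCA, any 4 bases, AGGTCA), which were in 0.211% and 0.0111% of all promoters. The TATA letters TATAAA were in 6.94% of member windows and 14.2% of all. All motifs were searched on both strands, and the only overlaps between matches in member windows were 1 of GGCGCC with NRF1 and 1 with YY1. A start site of another gene lay within 1000 bp of the start of 23 members (31.9%), against 15.0% of all genes. Among these were Atp5j, a stalk subunit of the ATP synthase, beside Gabpa, which encodes the DNA-binding subunit of GABP. Sdhd, a membrane anchor of complex II, lay beside Timm8b, and Uqcr10, a small subunit of complex III, beside Zmat5. Tags and peaks at such shared promoters cannot be told apart between the 2 genes. The shared-start share of members counted every listed start of other genes, and that of all genes 1 start per gene. Where a gene had several windows, a member's was chosen by its nearest region, and the first listed served for all genes. The 27025 promoters also took in genes without an H3K27ac region, whereas every member had one. The part of these differences in the shares was not tested.

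Member regions lay at promoters more often than regions in general, with 113 of 254 (44.5%) centred within 1000 bp of a start, against 26.8% of all regions. A member had a mean of 2.95 regions and genes in general 4.54. Atp5o, the oligomycin-sensitivity subunit that joins the catalytic head of the ATP synthase to its stalk, had the most with 25. The highest H3K27ac level of each complex, averaged over the 6 libraries, was that of Ndufa13 in complex I (157 CPM), Sdhb in complex II (101 CPM), Uqcrq in complex III (126 CPM), Cox7a2l, a factor that joins complexes into supercomplexes, among the complex IV genes (180 CPM) and Atp5o in complex V (343 CPM). These are sums over all regions of a gene and so grow with their number. Per 2000 bp region, the strongest promoter region of 78 members had a median of 19.7 and 23.7 CPM in the KC libraries, 22.3 and 20.5 CPM in the RLM libraries and 21.2 and 21.0 CPM in the monocyte libraries. Over 12015 genes with a promoter region the medians were 16.8 and 17.3 CPM in KC, 16.3 and 16.02 CPM in RLM, and 16.6 and 17.7 CPM in monocytes. The members' promoter level thus lay within 19.7 to 23.7 CPM in all 6 libraries and between the percentiles 54.9 and 59.6 of all promoters.

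RLM were set against monocytes, the blood cells that serve as their reference. The groups differ in mouse strain, toxin treatment and tissue at once, and the parts of these in the changes cannot be told apart. A gene was called when the adjusted p was under 0.05 and the change at least 2-fold. Of the 86 members 8 rose and 5 fell in RLM (15.1%), against 12.0% of all 16749 genes tested (6.2% higher and 5.8% lower). The median log2 fold change was 0.03 over members and 0.07 over all genes. Complex V held 5 of the 13 calls among its 14 genes, complex I held 4 of 37, complex IV 2 of 15, complex II 1 of 4 and the assembly factors 1 of 7, while no complex III gene was called.

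Among complex V genes, Atp5g2, which encodes a copy of the membrane ring subunit c, had 52.8 and 50.2 CPM in RLM, against 17.1 and 18.3 CPM in monocytes, a log2 fold change of 1.54 ± 0.19 (SE; adjusted p = 1.12e-07). Atp5e, the epsilon subunit, had 30.6 and 30.2 CPM in RLM and 9.54 and 13.3 CPM in monocytes (1.41 ± 0.23). Atp5a1, the alpha subunit of the catalytic head, had 57.3 and 64.1 CPM in RLM and 24.97 and 24.1 CPM in monocytes (1.31 ± 0.18). All 3 were higher in each RLM library than in either monocyte library, and their change lay at the promoter. Atp5o had 134 and 150 CPM in RLM and 63.7 and 67.5 CPM in monocytes (1.11 ± 0.15), but its promoter taken alone did not pass the test (0.33, adjusted p = 0.256). Atp5d, the delta subunit of the rotating stalk, went the other way, with 16.8 and 15.5 CPM in RLM, against 58.2 and 61.6 CPM in monocytes (-1.89 ± 0.19, adjusted p = 3.76e-09). Both of its regions lie at the promoter, and both were lower in each RLM library.

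In complex I, Ndufs8, an iron-sulfur subunit, had 48.4 and 50.3 CPM in RLM and 22.4 and 22.7 CPM in monocytes (1.13 ± 0.18). Ndufb8 had 35.7 and 29.3 CPM in RLM and 19.3 and 11.9 CPM in monocytes (1.06 ± 0.23). Ndufb2 had 61.0 and 53.6 CPM in RLM, against 123 and 123 CPM in monocytes (-1.11 ± 0.17). Ndufv1, the flavoprotein that accepts electrons from NADH, had 11.9 and 14.3 CPM in RLM and 28.4 and 24.8 CPM in monocytes (-1.02 ± 0.23). The assembly factor Ndufaf7, a methyltransferase, had 36.9 and 37.98 CPM in RLM and 87.2 and 69.1 CPM in monocytes (-1.06 ± 0.19). Sdhd had 21.8 and 25.7 CPM in RLM and 65.7 and 78.5 CPM in monocytes (-1.60 ± 0.19, adjusted p = 5.67e-08). All 4 of its regions lie 10088 to 12824 bp downstream of its start, between genes, and none at its promoter. Cox6a2 and Cox4i2, which rose, are given with the isoforms. Without a single library, 4 of these calls fell below 2-fold: Atp5o without RLM library 2 (0.99; 0.93 with overlapping regions counted once), Ndufaf7 without monocyte library 1 (-0.93), Ndufb8 without monocyte library 2 (0.71) or RLM library 1 (0.91) and Ndufv1 without monocyte library 1 (-0.96) or RLM library 1 (-0.90).

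**Figure D1:**
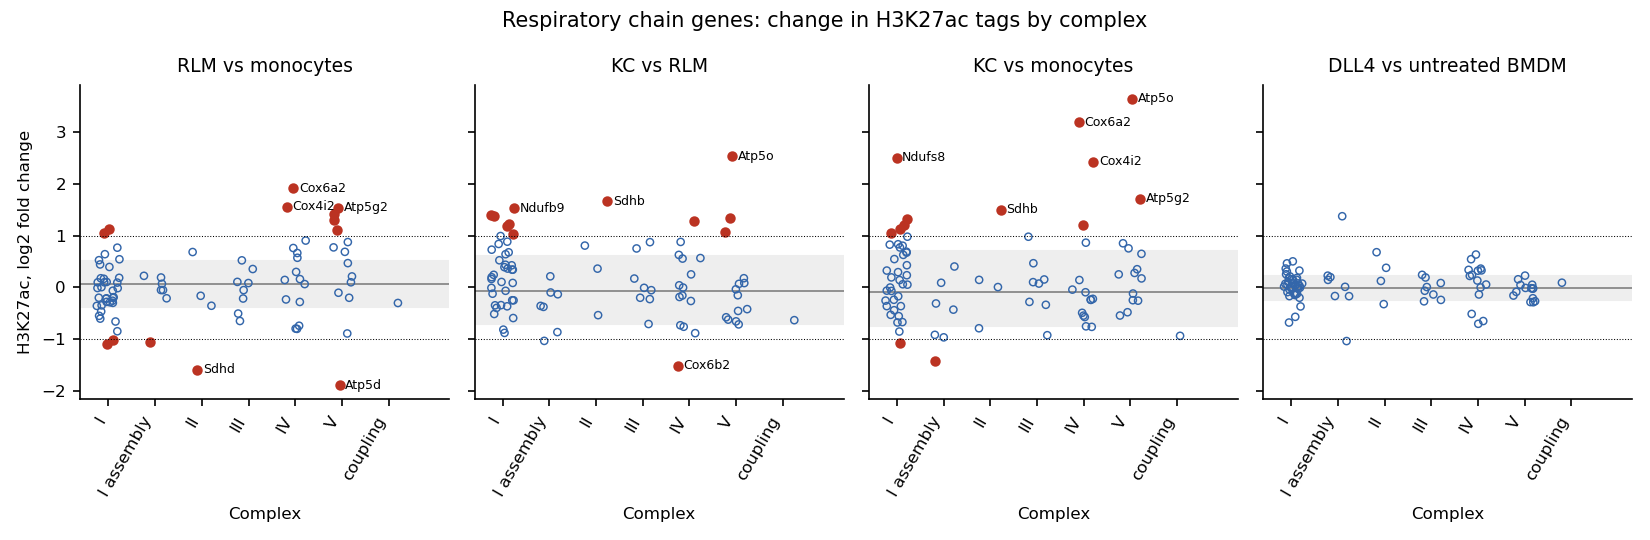
Log2 fold change of summed H3K27ac tags (y axis) for each respiratory chain gene, by complex (x axis), in the 4 comparisons. Filled points are called (adjusted p under 0.05, at least 2-fold), the grey line and band are the median and interquartile range over all genes tested, and dotted lines mark 2-fold. Calls reach 3.65 for Atp5o in KC against monocytes, and no point is filled in the DLL4 comparison.

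KC were next set against RLM, the liver macrophages taken 24 h after toxin. Toxin treatment and, by the labels, mouse strain differ together with the cell type here, and their parts cannot be told apart. In KC, 11 of the 86 members were higher and 1 was lower (14.0%), against 27.4% of all genes tested (14.6% higher and 12.8% lower), with a median log2 fold change of 0.05 over members and -0.07 over all genes. The higher genes were 6 of complex I, 3 of complex V, 1 of complex II and 1 of complex IV. With total tags as library size the median over all genes shifted to -0.29, and 7 members were higher and 4 lower.

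Atp5o had 761 and 881 CPM in KC, against 134 and 150 CPM in RLM, a log2 fold change of 2.53 ± 0.15 (adjusted p = 9.78e-15). Atp5d, low in RLM, had 41.3 and 40.8 CPM in KC and 16.8 and 15.5 CPM in RLM (1.35 ± 0.20). Atp5h, subunit d of the stator stalk, had 91.7 and 141 CPM in KC and 53.1 and 58.7 CPM in RLM (1.06 ± 0.18), and its regions lie 6480 and 7130 bp from its start. Sdhb, the iron-sulfur subunit of complex II, had 152 and 212 CPM in KC and 60.9 and 54.1 CPM in RLM (1.67 ± 0.17, adjusted p = 1.49e-09).

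The complex I genes that were higher were Ndufb9, Ndufa9, Ndufs8, Ndufs5, Ndufa12 and Ndufs6. Ndufs8 had 117 and 139 CPM in KC and 48.4 and 50.3 CPM in RLM (1.38 ± 0.17, adjusted p = 5.22e-08). Ndufa9, which stabilises the junction of the membrane and matrix arms, had 31.7 and 28.9 CPM in KC and 12.3 and 10.5 CPM in RLM (1.41 ± 0.23). Ndufs5 had 16.8 and 18.7 CPM in KC and 8.07 and 7.24 CPM in RLM (1.22 ± 0.27). Ndufa12 and Ndufs6 had log2 fold changes of 1.19 ± 0.22 and 1.03 ± 0.22, all of it at promoter regions. Ndufb9 had 55.7 and 53.8 CPM in KC and 17.5 and 20.2 CPM in RLM (1.53 ± 0.20), and every one of its regions lay inside Mtss1, 17036 to 70445 bp from its start. Of these calls Atp5h was under 2-fold without KC library 2 (0.72), Ndufa12 without RLM library 1 (0.91) and Ndufs6 without RLM library 1 (0.91) or KC library 2 (0.77). With total tags as library size, Atp5h (0.83), Ndufa12 (0.96), Ndufs5 (0.995) and Ndufs6 (0.79) were under 2-fold.

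KC were also set against monocytes, a comparison that shares its libraries with the other 2 and so is no independent repeat of them. In KC, 11 of 86 members were higher and 2 lower (15.1%), against 32.8% of all genes tested (18.4% higher and 14.4% lower), with medians of 0.07 over members and -0.08 over all genes. With total tags as library size the split was 7 higher and 7 lower, and the median over all genes was -0.34. Atp5o stood at 761 and 881 CPM in KC, against 63.7 and 67.5 CPM in monocytes, a 12.5-fold difference (3.65 ± 0.16, adjusted p = 1.02e-18). Ndufs8, at 117 and 139 CPM in KC and 22.4 and 22.7 CPM in monocytes, was 5.68-fold higher (2.51 ± 0.18, adjusted p = 1.09e-13). Atp5g2, at 54.8 and 61.2 CPM in KC and 17.1 and 18.3 CPM in monocytes, was 3.28-fold higher (1.72 ± 0.19). For these 3 genes no KC library overlapped a monocyte library.

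Sdhb had 152 and 212 CPM in KC and 65.9 and 62.8 CPM in monocytes (1.504 ± 0.172). Cox5a, a core-associated subunit of complex IV, had 214 and 280 CPM in KC and 116 and 100.0 CPM in monocytes (1.198 ± 0.159, adjusted p = 8.88e-08). Ndufab1, the mitochondrial acyl carrier protein that also sits in complex I, had 40.3 and 37.2 CPM in KC and 16.1 and 17.5 CPM in monocytes (1.203 ± 0.202). Ndufb9 (1.33 ± 0.19), Ndufs6 (1.13 ± 0.22) and Ndufa9 (1.06 ± 0.22) were higher as well. The lower genes were Ndufaf7, with 24.1 and 33.7 CPM in KC and 87.2 and 69.1 CPM in monocytes (-1.42 ± 0.19), and Ndufb11, with 12.2 and 10.98 CPM in KC and 23.0 and 25.6 CPM in monocytes (-1.08 ± 0.23). No complex III gene was called, and Uqcrq, a small subunit of that complex, had 115 and 125 CPM in KC, 103 and 110 CPM in RLM and 163 and 141 CPM in monocytes. Cox5a and Ndufs6 were under 2-fold without KC library 2 (0.95 and 0.83), Ndufa9 without monocyte library 1 (0.94) or with overlapping regions counted once (0.70), Ndufab1 with overlapping regions counted once (0.96) and Ndufb11 without monocyte library 2 (-0.997). With total tags as library size, Cox5a (0.93), Ndufa9 (0.80), Ndufab1 (0.94) and Ndufs6 (0.86) were under 2-fold.

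**Figure D2:**
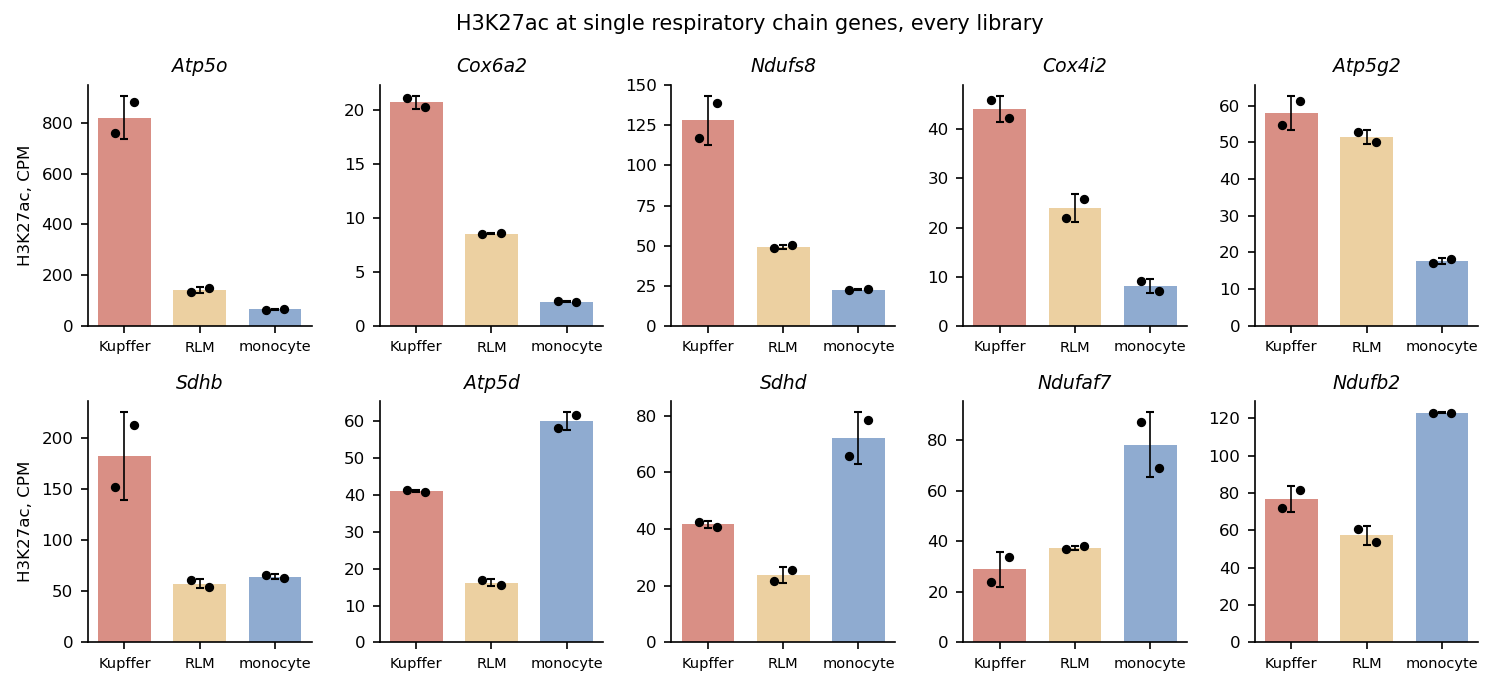
H3K27ac level in CPM (y axis) of 10 respiratory chain genes in Kupffer cells, RLM and monocytes (x axis). Points are libraries, bars the mean and error lines the SD (n = 2). Atp5o stands above 761 CPM in both KC libraries and below 150 CPM in the others, while Atp5d and Sdhd are lowest in RLM.

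The gene-level sums hid where the change lay. The deposited tables assign each region to the nearest start site, and of the 141 regions of members farther than 1000 bp from a start, 33 lay within the member's own body, 66 within another gene and 42 between genes. Promoter regions, taken alone, were called for 8 of 78 members in RLM against monocytes (10.3%, against 13.3% of all genes with promoter regions), 8 of 78 in KC against RLM (10.3%, against 19.4%) and 9 of 78 in KC against monocytes (11.5%, against 27%). In KC against monocytes 8 of the 78 were higher (10.3%, against 16.5% of all genes) and 1 was lower (against 10.5% of all genes). Distal regions, taken alone, were called for 10 of 48 members in RLM against monocytes (20.8%, against 14.1% of all genes), 15 of 48 in KC against RLM (31.3%, against 41.2%) and 24 of 48 in KC against monocytes (50%, against 43.8%). In the last of these 11 members were higher and 13 lower, against 21.2% and 22.5% of all genes. Promoter regions held 67.6% and 66.5% of member tags in the KC libraries, 85.5% and 83.7% in the RLM libraries and 82.7% and 83.8% in the monocyte libraries. Without Atp5o the shares were 79.5% and 78.5% in KC, 87.6% and 86.4% in RLM and 83.5% and 84.5% in monocytes.

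**Figure D3:**
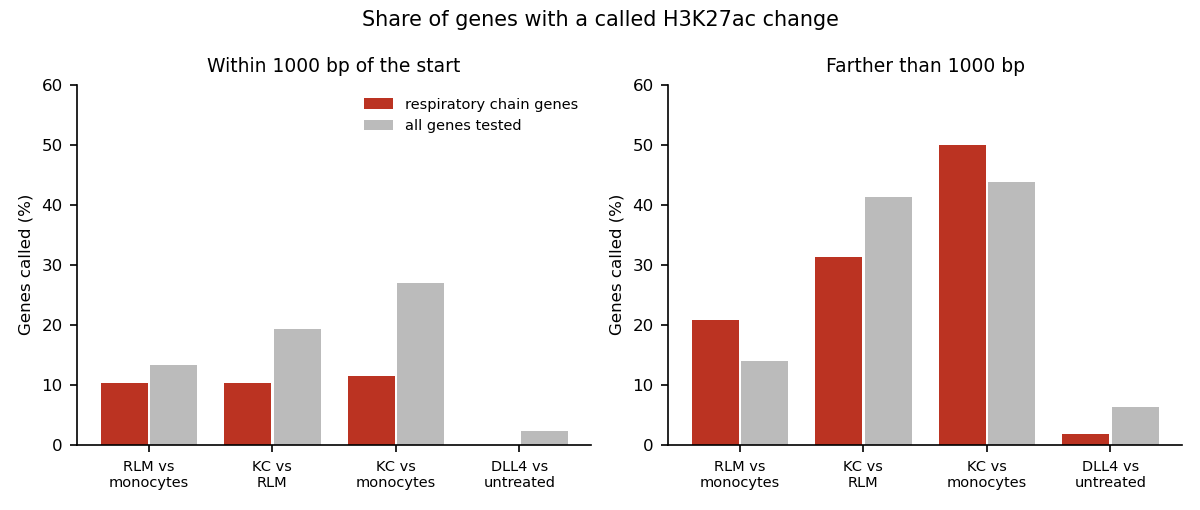
Percentage of genes called for H3K27ac (y axis) in the 4 comparisons (x axis), at regions within 1000 bp of a start (left) and farther away (right), for respiratory chain genes (red) and all genes tested (grey). At promoters the red bars reach 11.5% and the grey bars 27%, while for distal regions in KC against monocytes they reach 50% and 43.8%.

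Atp5o showed the widest gap between its promoter and its distal regions. Its promoter region, chr16:91930645-91932645, had 32.8 and 46.2 CPM in KC, 35.8 and 27.4 CPM in RLM and 23.2 and 29.0 CPM in monocytes. As a single region it was not called in KC against monocytes (log2 0.61). In the test of promoter regions alone it was higher in KC than in monocytes, but under 2-fold (log2 0.87, adjusted p = 0.00167). Against RLM that test gave 0.54 (adjusted p = 0.0492). Of the 24 distal regions of Atp5o, 19 were called higher in KC against monocytes. Of all 74807 single regions tested, 18619 were called higher and 13136 lower (42.4% in either direction). All but 1 of the 19 lay within Itsn1, the neighbouring gene, which encodes an endocytic scaffold protein. Over all members, 164 of 254 regions (64.6%) overlapped a neighbouring region, against 55.2% of all regions. Called regions that overlap share tags and are not separate observations. The region at chr16:91848050-91850050, 82580 bp from the Atp5o start, had 70.3 and 83.9 CPM in KC, 11.6 and 9.61 CPM in RLM and 0.629 and 0.894 CPM in monocytes (log2 6.64 in KC against monocytes, adjusted p = 4.56e-26). The neighbour at chr16:91846681-91848681 had 63.7 and 92.4 CPM in KC, 3.57 and 2.21 CPM in RLM and 1.08 and 0.894 CPM in monocytes. A cluster 61239 to 62479 bp from the start was already between 9.99 and 22.3 CPM per region in RLM and between 4.68 and 7.06 CPM in monocytes. The Atp5o counts are therefore mainly counts of regions inside Itsn1, and whether these act on either gene was not tested.

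Sdhb had 1 promoter region and 3 regions in its own body. The promoter, chr4:140960271-140962271, had 42.2 and 51.7 CPM in KC, 35.1 and 35.1 CPM in RLM and 65.1 and 57.3 CPM in monocytes, so that its level was highest in monocytes. KC against monocytes did not pass the test of promoter regions alone (log2 -0.12, adjusted p = 0.626). The region at chr4:140963828-140965828, 3557 bp into the gene, had 45.2 CPM on average in KC, 10.9 CPM in RLM and 1.88 CPM in monocytes (log2 4.59 in KC against monocytes and 2.52 in RLM against monocytes). The 3 regions overlap one another, and when overlapping regions were counted once the gene's log2 fold change in KC against monocytes was 0.70 in place of 1.504. Cox5a had the same arrangement, with 2 regions 2723 and 4559 bp into the gene higher by log2 3.03 and 3.01 in KC than in monocytes and a promoter region at 0.73.

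Cox4i1, the common form of the first regulatory subunit of complex IV, was lower at distal regions. Its promoter region had 48.6 and 51.5 CPM in KC, 56.4 and 70.0 CPM in RLM and 57.8 and 49.99 CPM in monocytes. Its 13 distal regions, 10307 to 33907 bp downstream, summed to 83.5 and 82.3 CPM in KC, 60.8 and 88.2 CPM in RLM and 200.0 and 197 CPM in monocytes. In RLM 8 of them were called lower than in monocytes, among them chr8:120684818-120686818 with 19.7 CPM in RLM and 53.6 CPM in monocytes. Of all 74807 single regions 6881 were called lower and 6494 higher in RLM (17.9% in either direction). The 8 distal regions lay within Gm39265 or between genes, not within Cox4i1, and whether they act on Cox4i1 was not tested. Summed over all its regions, Cox4i1 fell by 0.80 on the log2 scale in RLM and did not reach 2-fold. Ndufaf7 was lower both at its promoter, with 19.8 and 30.7 CPM in KC and 68.9 and 54.6 CPM in monocytes, and 2102 bp into the gene, with 1.55 and 1.65 CPM in KC and 19.2 and 15.3 CPM in monocytes. Ndufs8 was higher at its promoter, where the region centred 117 bp upstream had 42.0 and 58.0 CPM in KC, 20.8 and 20.3 CPM in RLM and 9.17 and 10.6 CPM in monocytes.

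**Figure D4:**
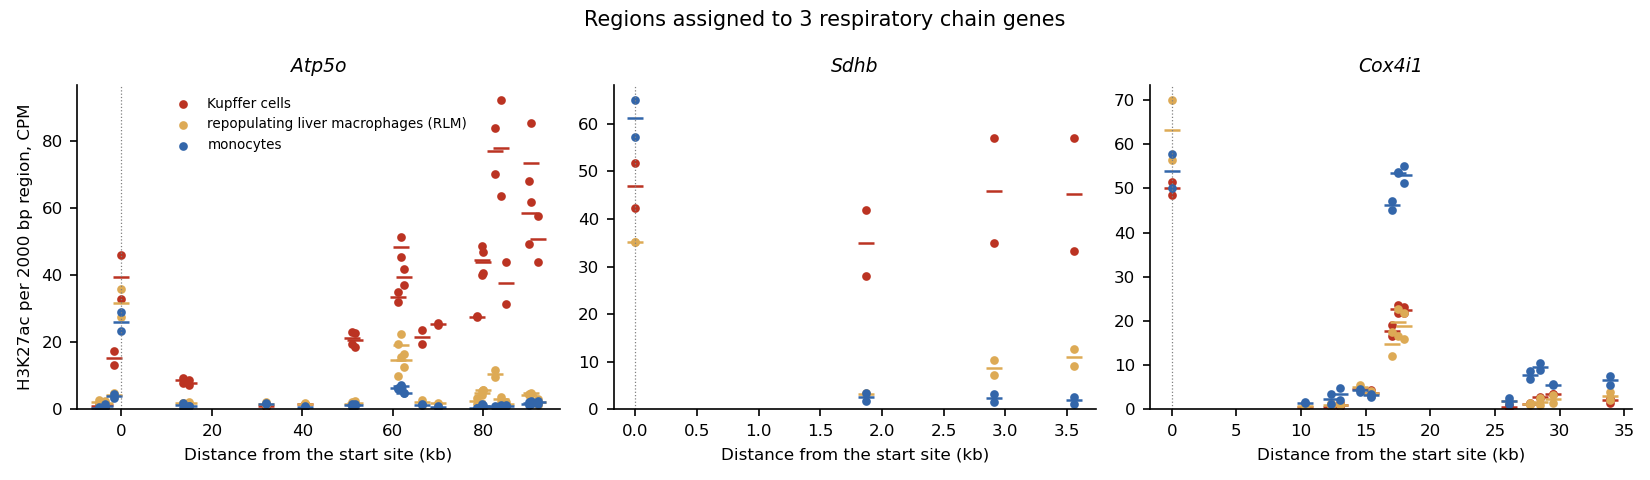
H3K27ac per 2000 bp region in CPM (y axis) against distance from the start site in kb (x axis) for the regions assigned to Atp5o, Sdhb and Cox4i1. Points are libraries and dashes group means (n = 2). Kupffer cells stand apart at the distal regions of Atp5o, up to 92.4 CPM, and within Sdhb, and monocytes at the distal regions of Cox4i1.

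Of the tissue-restricted isoforms, Cox7b2, Cox8b and Cox8c had no region. Cox6a2 had 21.1 and 20.3 CPM in KC, 8.49 and 8.56 CPM in RLM and 2.30 and 2.20 CPM in monocytes. It was called in RLM against monocytes (1.92 ± 0.32, adjusted p = 1.48e-05), in KC against RLM (1.27 ± 0.27) and in KC against monocytes (3.19 ± 0.30, adjusted p = 8.02e-11). Its strongest region in KC, chr7:128220173-128222173, lies between genes, 14807 bp upstream of its start, and was called in all 3 comparisons (log2 3.92 in KC against monocytes). A second region, 3529 bp upstream, was called in KC against monocytes (log2 1.59), and Cox6a2 had no promoter region. Cox4i2 had 46.0 and 42.3 CPM in KC, 21.9 and 25.9 CPM in RLM and 9.12 and 7.18 CPM in monocytes. Its changes were 1.56 ± 0.23 in RLM against monocytes and 2.43 ± 0.22 in KC against monocytes. It too had no promoter region, and its strongest regions lay within Bcl2l1, the gene of the survival protein BCL-XL. Cox7a1 had 25.04 and 18.9 CPM in KC, 14.0 and 15.4 CPM in RLM and 12.5 and 11.4 CPM in monocytes and did not reach 2-fold in any of these comparisons. Cox6b2, the member that was lower in KC than in RLM, had 26 and 12 raw tags in the KC libraries and 45 and 46 in the RLM libraries (-1.51 ± 0.52, adjusted p = 0.016). Without KC library 2 its change was -0.62 (adjusted p = 0.381), and without RLM library 1 it was -1.33 (adjusted p = 0.083). Ndufa4l2, a hypoxia-induced relative of Ndufa4, had between 1.43 and 3.62 CPM in all 6 libraries and passed no test.

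In BMDM, DLL4 was set against no treatment to ask what Notch ligand alone does. No member changed 2-fold (0 of 87, against 3.89% of all 16421 genes), and DESeq2 called none either. At an adjusted p under 0.05 and any fold, 7 members rose and 7 fell (16.1%, against 26.3% of all genes, 15.4% higher and 10.9% lower). At an unadjusted p under 0.05, 21 members passed (24.1%, against 34.4% of all genes). The median log2 fold change was 0.04 over members and -0.01 over all genes. Liver endothelium markers summed to 234 to 237 CPM with DLL4 and 115 to 118 CPM without, but only Pecam1 of the 7 was called (108 CPM with and 25.03 CPM without). Their median log2 fold change was 0.18. Kupffer cell markers summed to 545 to 569 CPM with and 425 to 441 CPM without. Their part in the changes below was not tested. Levels in this table were normalised apart from the liver table and are not compared with it.

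Sdhb had 164 and 166 CPM with DLL4 and 103 and 103 CPM without (0.68 ± 0.07, adjusted p = 2.21e-12). Cox6a2 had 31.1 and 32.2 CPM with DLL4 and 22.5 and 18.5 CPM without (0.63 ± 0.14), and Cox5a 84.5 and 80.2 CPM with and 59.0 and 54.1 CPM without (0.54 ± 0.09). Ndufs5 (0.50 ± 0.17), Cox8a (0.33 ± 0.11), Cox4i1 (0.32 ± 0.05) and Cox7a2l (0.22 ± 0.08) rose by less. Cox4i2 had 37.3 and 37.8 CPM with DLL4, against 56.1 and 61.9 CPM without (-0.65 ± 0.11, adjusted p = 8.08e-07). Ndufa8 (-0.68 ± 0.16), Ndufb3 (-0.57 ± 0.12), Ndufb9 (-0.37 ± 0.07), Atp5g3 (-0.29 ± 0.11) and Atp5o (-0.21 ± 0.06) fell too, as did Cox7a1 at 3.70 and 3.84 CPM with and 6.34 and 5.98 CPM without (-0.71 ± 0.27, adjusted p = 0.0476). Cox7a1 and Ndufs5 missed the threshold whichever library was left out, and Atp5g3 and Cox8a missed it without any of 3 libraries. Cox7a2l missed it without DLL4 library 1 (0.129) or either untreated library, and Atp5o without untreated library 2 (-0.15). With DESeq2, Cox7a1, Cox7a2l and Atp5g3 missed it. With total tags as library size Cox7a2l, Cox8a and Ndufs5 missed it, and Cox7a2l also with overlapping regions counted once. At promoter regions alone 2 members rose and 2 fell at any fold (5.19%, against 13.8% of all genes, 8.13% higher and 5.72% lower), and none changed 2-fold (0 of 77, against 2.3%).

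Peaks of the 3 factors were asked for at the members' regions. A member was counted when a peak overlapped one of its regions in both libraries of a group. LXR peaks were found at 74 of 87 members in KC (85.1%, against 62.2% of all 18476 genes) and at 57 in BMDM (65.5%, against 53.1%). SMAD4 peaks were found at 60 members in KC nuclei (69.0%, against 55.9%) and at 50 in BMDM (57.5%, against 49.0%). RBPJ peaks were found at 28 members in KC nuclei (32.2%, against 27.8%) and at 85 in BMDM (97.7%, against 85.2%). The RBPJ libraries differed in how much of them lay in peaks, with 1.01% and 0.76% of tags in KC nuclei and 25.1% and 24.5% in BMDM, so the 2 RBPJ counts are given side by side only. For a fold over input of at least 8, the RBPJ count in KC nuclei was 2 members (2.30%, against 4.12% of all genes). At that threshold the LXR share in BMDM was 34.5% of members, against 38.6% of all genes, the SMAD4 share in BMDM 36.8% of each, and the RBPJ share in BMDM 70.1%, against 72.0%. Members had the larger share for LXR in KC (65.5%, against 52.6%) and for SMAD4 in KC nuclei (59.8%, against 53.2%).

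Of the peaks at member regions, 58.4% to 72.9% lay at promoter regions in the KC libraries of the 3 factors and 42.9% to 55.5% in the BMDM libraries, against 30.1% to 41.0% and 22.3% to 29.3% of the peaks at all regions. Among members with a promoter region, 84.0% had an LXR peak there in KC and 50.6% in BMDM, against 59.0% and 33.7% of all such genes. For SMAD4 the shares were 61.7% in KC nuclei and 42.0% in BMDM, against 57.4% and 39.4%. For RBPJ they were 27.2% in KC nuclei and 92.6% in BMDM, against 18.1% and 77.9%. Peaks in distal regions were found at a smaller share of members than of all genes for each factor and cell type, for example 23.0% against 39.1% for LXR in KC. Members had fewer regions than genes in general (means of 2.95 and 4.54), and the part of this in the distal shares was not tested.

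**Figure D5:**
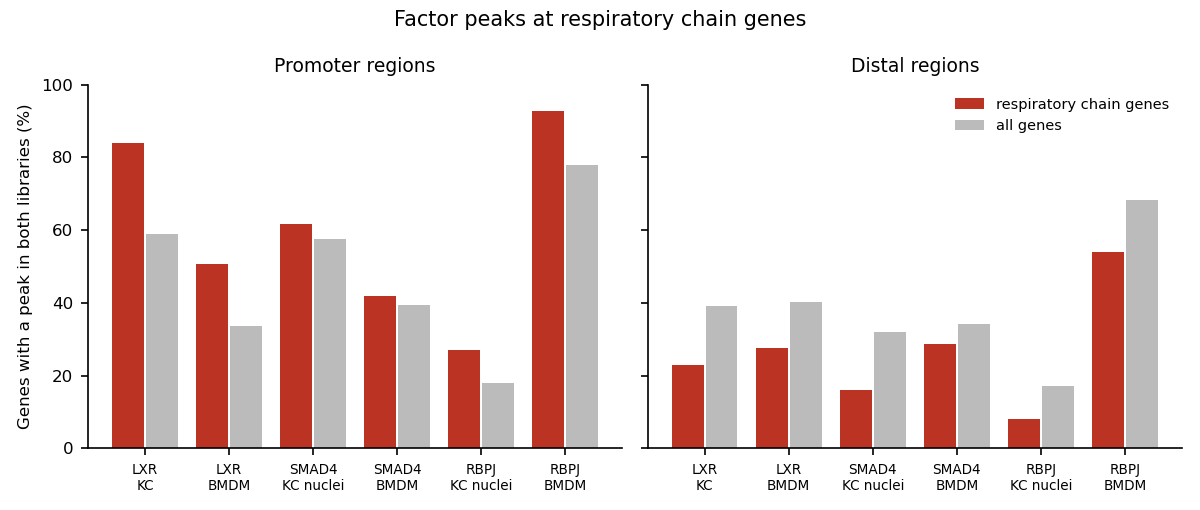
Percentage of genes with a peak in both libraries (y axis) for each factor and cell type (x axis), at promoter regions (left) and distal regions (right), for respiratory chain genes (red) and all genes (grey). At promoters the red bars are the taller in all 6 groups, and at distal regions the shorter in all 6.

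Of the 74 members with LXR peaks in KC, 51 had them in BMDM as well (68.9% of the KC members and 89.5% of the BMDM members), and over all genes these shares were 72.7% and 85.2%. For SMAD4, 39 were shared (65.0% and 78.0%), against 71.0% and 81.0% over all genes. All 28 members with RBPJ peaks in KC nuclei had them in BMDM, where they made up 32.9%, and over all genes the shares were 97.2% and 31.7%. All 3 factors had peaks at 22 members in KC (25.3%, against 24.5% of all genes) and at 36 in BMDM (41.4%, against 38.4%). No factor had one at 9 members in KC (10.3%, against 31.7% of all genes) and at 1 in BMDM (1.15%, against 13.7%). The BMDM differed between factors, with 7 days of culture and GW3965 for LXR and 4 days untreated for SMAD4 and RBPJ. The peak heights given next are the authors' tag counts, scaled to 10 M tags per library, and serve only to rank peaks within a library.

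The strongest LXR peaks in KC were at Atp5o (222 and 82.0 in the 2 libraries), Ndufs8 (174 and 65.7), Ndufa5, a matrix-arm subunit of complex I (167 and 63.7), Atp5j2 (88.4 and 79.0), Uqcr10 (55.2 and 106) and Ndufaf5 (84.1 and 72.1). The Atp5o peak in KC library 1 was chr16:91849009-91849175, inside the Itsn1 region with the highest log2 fold change of H3K27ac, while in library 2 the strongest peak was over the promoter (chr16:91931553-91931755). Atp5o regions held 17 and 14 LXR peaks in the KC libraries. In BMDM the strongest LXR peaks were at Uqcr10 (275 and 430), Cox7c (233 and 230), Atp5o (221 and 223), Ndufs8 (126 and 140), Ndufa3 (116 and 142) and Cox4i1 (96.5 and 150). There the Atp5o peak was chr16:91931604-91931754 in library 1, over the promoter shown above.

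SMAD4 in KC nuclei was strongest at Atp5o (90.3 and 113), Ndufs5 (74.4 and 114), Cox4i1 (69.2 and 111), Cox5a (49.1 and 126), Sdhb (69.2 and 95.9) and Cox4i2 (57.0 and 104). The Sdhb peaks, chr4:140964167-140964315 in library 1 and chr4:140964208-140964386 in library 2, lie within the gene at the regions that gained H3K27ac. In BMDM SMAD4 was strongest at Sdhb (202 and 163), Atp5h (204 and 137), Atp5o (153 and 154), Cox4i1 (162 and 129), Cox4i2 (166 and 101) and Ndufs8 (108 and 126). RBPJ in BMDM was strongest at Atp5d (301 and 321), with peaks over the promoter window shown above, and other strong peaks were at Sdhb (178 and 172), Ndufv1 (136 and 135), Atp5k (131 and 121) and Ndufb10 (135 and 114). In KC nuclei RBPJ peaks were low, led by Atp5g2 (18.3 and 13.6), Cox4i1 (14.6 and 15.7), Ndufab1 (14 and 11), Ndufa5 (12.9 and 9.08), Ndufa10 (11.7 and 10.2) and Ndufb5 (11.5 and 10.2).

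Genes around the chain were read from 5 lists. Of 38 assembly factors outside the name rule 34 were tested, and in KC against monocytes 4 were higher and 1 lower. Oxa1l, the insertase for inner membrane proteins, averaged 252 CPM in KC, 119 CPM in RLM and 47.0 CPM in monocytes (log2 2.43 in KC against monocytes). Cox10, a heme O synthase, was at 1.51 and Pet100 at -1.14 in the same comparison. Of 24 tested electron carriers and other entry points 3 were higher and 1 lower in KC against monocytes, led by Ucp2, an inner membrane carrier, at 336 CPM in KC, 200.2 CPM in RLM and 98.6 CPM in monocytes. Cycs, cytochrome c itself, was lower in RLM than in monocytes (20.4 and 46.7 CPM, log2 -1.205), and Etfa, which feeds electrons from fatty acid oxidation, was higher (182 and 69.2 CPM, log2 1.39).

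Of 15 tested regulators of mitochondrial biogenesis 1 was higher and 4 lower in KC against RLM. Ppargc1b, a coactivator of respiratory genes, was the higher one, at 65.5 CPM in KC, 22.4 CPM in RLM and 10.6 CPM in monocytes (log2 1.55 in KC against RLM and 2.61 in KC against monocytes). Nrf1 was lower in KC than in RLM (41.6 and 99.1 CPM, log2 -1.26), as was Polg, the mitochondrial DNA polymerase (22.4 and 52.4 CPM, log2 -1.26). None of the 18 genes of the tricarboxylic acid cycle was called in KC or RLM in any of the 3 comparisons, and with DLL4 Idh2 rose (115 CPM with and 48.9 CPM without, log2 1.23). Of 22 glycolysis genes 4 were higher and 4 lower in KC against monocytes, among them Hk3 (261 and 63.5 CPM), Slc16a3, a lactate exporter (21.9 and 100.0 CPM), and Pfkp (84.1 and 242 CPM). The background shares for these counts are those given for each comparison above, 12.0%, 27.4%, 32.8% and 3.89% of all genes tested.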

How the data were processed

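H3K27ac was read from 2 deposited tables of raw tag counts per 2000 bp region, which the authors made with HOMER, per the file headers, and annotated to the nearest start site. Bowtie2, HOMER and the mm10 build are named in the submitters' processing notes, without versions. Factor peaks came from HOMER peak lists, which the authors called per library against input, per the file headers, at a false discovery rate of 0.001 and 4-fold over input. The deposited lists give a tag count scaled to 10 M tags (a signal), a fold over input (a ratio) and a peak score, and replicates were not pooled. One KC LXR library was set against an input whose name gives a NASH diet, per the file headers.

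Tags were summed per gene over regions within 100000 bp of a start. Genes were filtered with filterByExpr, scaled by TMM and tested with edgeR 4.0.16 (quasi-likelihood, robust) in R 4.3.3, one fit per table with 2 libraries a group, with Benjamini-Hochberg adjustment over all genes. All 86 and 87 members passed the filter. A call needed an adjusted p under 0.05 and a 2-fold change. DESeq2 1.42.0, total tags as library size, no filter, non-overlapping regions, promoter or distal regions alone, a replicate block and leaving out each library were alternatives. The test was checked on simulated counts with less spread between libraries than the monocyte and liver table had (common dispersion 0.0195). Changes were planted only in genes with many tags, so the check does not cover low counts such as those of Cox6b2. The genes named are the called members, those passing at any fold with DLL4, the highest of each complex, the tissue isoforms and the 6 strongest by peak in each factor group, of which 1 is not reported here. Library depth is given with the results. Members and gene lists were chosen with earlier results of these data known.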

Additional observations from a re-analysis of the deposited data

How the results depend on the processing

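With total tags as library size, 7 members were higher and 4 lower in KC against RLM, and 7 higher and 7 lower in KC against monocytes. With promoter regions alone 5 were higher and 3 lower in RLM against monocytes, and 7 and 1 in KC against RLM. In KC against monocytes 8 were higher and 1 lower at promoters. With distal regions alone 5 were higher and 5 lower in RLM against monocytes, and 7 and 8 in KC against RLM. In KC against monocytes 11 were higher and 13 lower at distal regions. With DLL4 1 of 53 members was called at distal regions, and it was higher (1.89%, against 6.33% of all genes). The shares of all genes for the other 3 comparisons are given above. Fewer regions enter these last 2 settings, and the cause of the other shifts was not tested. Single values changed sign for Atp5g2 (-0.57 in RLM and -1.69 in KC against monocytes, distal regions alone), Ndufv1 (0.0188 in RLM, distal regions alone), Sdhb (-0.12 in KC against monocytes, promoter regions alone) and Cox4i1 (-0.17 with DLL4, promoter regions alone). At 8-fold over input, LXR peaks in BMDM were at 30 members (34.5%, against 38.6% of all genes), SMAD4 peaks in BMDM at 32 (36.8% of each) and RBPJ peaks in KC nuclei at 2 (2.30%, against 4.12%), and with a peak in either library RBPJ was at 55 members in KC nuclei (63.2%, against 53.1%).

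Leaving out 1 library gave 7 to 8 higher and 4 to 7 lower members in RLM against monocytes, 9 to 14 higher and 0 to 2 lower in KC against RLM, 10 to 14 higher and 2 to 3 lower in KC against monocytes and 0 with DLL4. From single libraries the peak counts ran from 35 to 48 for RBPJ in KC nuclei and from 85 to 87 in BMDM. With the replicate block the counts were 8 higher and 5 lower, 11 and 1, 11 and 2, and 0 and 0. Deviations of libraries of 1 number had correlations from -0.04 to 0.06 over genes. Such values cannot show whether the numbers mark a shared animal or culture. DESeq2 gave 8 and 5, 12 and 1, 13 and 2, and 0 and 0. The smallest change that passed was the log2 change of -0.21 for Atp5o with DLL4, in the deeper table.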
